A study of Homo sapiens with 4 samples.

Results

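The genes described here encode the classical cadherins and T-cadherin (CDH1, CDH2, CDH3, CDH4 and CDH13) and the catenins bound to cadherin tails (CTNNA1, CTNNB1 and CTNND1). They were listed by symbol, with earlier results of these data known but with no threshold on a measured value, and matched to the Ensembl identifiers of the count table. They are 8 of its 63856 genes and 8 of the 15830 that were tested. The RNA came from MCF10A, an immortal but non-tumorigenic line of human breast epithelium, and there were 2 variants of the cells with 2 libraries each. The WT cells were unmodified, and the HSF1-pLVX cells had been transduced with a lentivirus made from the pLVX-Puro plasmid with the human HSF1 coding sequence and selected in puromycin. HSF1 is the transcription factor that turns on heat shock genes. Both variants were grown in the same medium with horse serum, insulin, hydrocortisone, EGF and cholera toxin, and neither was heat-shocked according to the labels. Whether the HSF1-pLVX cells were a pool or a clone is not given in the sources used here. None of the libraries came from MCF10A cells with the empty vector. In these libraries the effect of HSF1 therefore cannot be told apart from that of the vector, the selection or the separate passage of the cells. The study did include cells with the empty vector in other assays, among them its protein blots, spheroid images and flow cytometry.

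Classical cadherins are membrane proteins that hold neighbouring cells together at adherens junctions by binding, in the presence of calcium, the same kind of cadherin on the next cell. Their tails bind beta-catenin (CTNNB1) and p120-catenin (CTNND1), and beta-catenin in turn binds alpha-catenin (CTNNA1), which connects the complex to actin. In the mammary gland E-cadherin (CDH1) joins luminal cells, P-cadherin (CDH3) is typical of basal and myoepithelial cells, and N-cadherin (CDH2) is best known from neural and mesenchymal cells and from epithelial cells that take on mesenchymal features.

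The transcripts of 3 cadherins and 2 catenins were lower in HSF1-pLVX than in WT cells, and those of 2 cadherins and 1 catenin were higher. CDH2 (27.5-fold), CDH1 (2.69-fold) and CDH4 (2.23-fold) fell, as did CTNNB1 and CTNNA1 by smaller amounts, while CDH13 (5.58-fold), CDH3 (1.78-fold) and CTNND1 (1.29-fold) rose. In all, 8 of the 8 genes passed an adjusted p of 0.05 in edgeR's quasi-likelihood test, 5 of them lower and 3 higher. Of all tested genes, 65.9% passed it, 33.2% lower and 32.7% higher, so that a call alone was the usual outcome. At least a 2-fold change was found in 4 of the 8 genes, with 3 lower and 1 higher, against 14.0% of tested genes lower and 14.9% higher by that much. The median absolute log2 fold change was 0.99 for the 8 genes and 0.58 for all tested genes, and the signed medians were -0.72 and 0.02. The values of the WT and HSF1-pLVX libraries did not overlap for 8 of 8 genes. Among all tested genes this held for 83.1%, of which 41.0 points were genes with lower and 42.1 points genes with higher HSF1-pLVX libraries.

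The libraries held between 18688109 and 24184285 counts, and levels are given in CPM (counts per library total after TMM scaling, on a scale common to all libraries) as the mean ± SD with n = 2 libraries. HSF1 itself stood at 200.4 and 189.2 CPM in the WT libraries and at 982.4 and 998.6 in the HSF1-pLVX libraries, as the labels of the libraries require, although counts do not separate the introduced from the endogenous transcript. For a single gene the smallest p that permuting these libraries exactly could give was 0.33. The edgeR test shares its estimate of the spread among genes. Of the degrees of freedom behind its p-values, 2 came from the libraries of a gene and 11.9 were borrowed from other genes. The study calls the libraries of a variant biological replicates. Neither it nor the labels say whether they came from separate cultures, so the p-values measure only the spread between these libraries. All 10 basal mammary markers examined passed the filter on low counts, including KRT5, TP63 and ITGA6, while lists for other cell types were mixed. Of the fibroblast list COL1A2, COL3A1 and LUM had at most 1 count per library, but FBLN1 stood at 252 and FAP at 204 CPM in WT cells. Of the white blood cell list PTPRC had 0 counts in every library, and CSF1R stood at 23.5 CPM in WT cells.

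Start regions were at hand for 4 of the 8 genes, and all 4 of these genes were lower in HSF1-pLVX cells. The windows come from RefSeq on GRCh38.p14 and run from 250 bases before to 50 bases after an annotated transcription start, 5′ to 3′ on the strand of the gene. There were 9 of them, 2 for CDH2, 2 for CDH4, 4 for CTNNA1 and 1 for CTNNB1. No window was matched for CDH1, CDH3, CDH13 or CTNND1. One window per gene is shown, with the letters of the motifs searched in capitals. For CDH2, CDH4 and CTNNB1 it is the first listed, and for CTNNA1 it is the fourth, chosen because only that one of its windows held any of these motifs. They are the first CDH2 window (chr18:28177081-28177380, minus strand), the first CDH4 window (chr20:61499171-61499470, plus strand), the fourth CTNNA1 window (chr5:138875150-138875449, plus strand) and the CTNNB1 window (chr3:41199255-41199554, plus strand).
CDH2: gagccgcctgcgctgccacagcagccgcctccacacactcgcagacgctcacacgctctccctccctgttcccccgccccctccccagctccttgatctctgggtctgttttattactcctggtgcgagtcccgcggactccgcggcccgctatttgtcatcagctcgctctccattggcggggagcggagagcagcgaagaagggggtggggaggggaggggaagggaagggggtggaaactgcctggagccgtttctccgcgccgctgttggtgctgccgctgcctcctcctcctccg
CDH4: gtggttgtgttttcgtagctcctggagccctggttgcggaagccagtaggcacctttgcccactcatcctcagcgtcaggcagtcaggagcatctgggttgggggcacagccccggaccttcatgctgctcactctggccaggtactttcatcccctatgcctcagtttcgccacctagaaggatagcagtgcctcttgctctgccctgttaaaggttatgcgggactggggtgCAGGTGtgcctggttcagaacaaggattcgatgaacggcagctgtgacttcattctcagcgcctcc
CTNNA1: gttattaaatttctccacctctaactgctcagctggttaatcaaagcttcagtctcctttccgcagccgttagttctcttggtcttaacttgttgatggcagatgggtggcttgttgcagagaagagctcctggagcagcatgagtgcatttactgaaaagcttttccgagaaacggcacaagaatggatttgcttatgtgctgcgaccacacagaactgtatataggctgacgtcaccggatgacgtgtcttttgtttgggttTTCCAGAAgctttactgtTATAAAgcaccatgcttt
CTNNB1: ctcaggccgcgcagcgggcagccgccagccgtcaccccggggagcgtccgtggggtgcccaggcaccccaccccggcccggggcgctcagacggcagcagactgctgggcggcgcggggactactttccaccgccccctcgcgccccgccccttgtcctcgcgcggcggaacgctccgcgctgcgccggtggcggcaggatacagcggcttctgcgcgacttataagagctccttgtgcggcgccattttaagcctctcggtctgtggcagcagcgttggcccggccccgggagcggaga
The motifs were searched on both strands. They were the E-box CAGGTG bound by SNAI and ZEB factors, the heat shock element units bound by HSF1 in their paired arrangements (GAANNTTC and TTCNNGAA), and the TATA box, spelled TATAAA. An E-box of this form was present in 20.6% of all 34943 windows of this length, either heat shock arrangement in 13.5% and the TATA box in 11.6%. The CDH4 window held an E-box that began 16 bases before the start. In the CTNNA1 window a heat shock pair began at base 15 and a TATA box at base 33, counted with the first transcribed base as 1. The second CDH2 window held a TATA box 32 bases before the start, and the other 6 windows held none of these motifs. The CDH4, CTNNA1 and CTNNB1 windows lie downstream of the starts of these genes in the count table (61252426, 138610967 and 41194837). Both CDH2 windows likewise lie inside that gene, the first close to its start at 28177446. Whether MCF10A cells use the starts in these windows was not measured. These matches are letters in a window, and binding was not measured.
The windows differed in base composition. The CTNNB1 window was 74.0% G and C with 39 CpG and the first CDH2 window 67.0% with 23 CpG, against medians of 58.7% and 14 over all windows. The CDH4 window shown had 57.3% and 9 CpG, and the CTNNA1 window shown 44.7% and 8. The first and second CTNNA1 windows, with 77.7 and 74.7% and 37 and 44 CpG, were closer to the CTNNB1 window.

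CDH1 encodes E-cadherin, the main cadherin of epithelial adherens junctions. The gene (ENSG00000039068.18) lies on the plus strand of chromosome 16 of hg38, from 68737225 to 68835548, and its canonical transcript has 16 exons. Its level was 845.7 and 862.6 CPM in the WT libraries and 333.1 and 302.3 in the HSF1-pLVX libraries. Both HSF1-pLVX libraries were far below both WT libraries, and the libraries of each variant lay close together. The means were 854.1 ± 11.95 and 317.7 ± 21.81 CPM, and the log2 fold change was -1.43 (SE 0.099, 95% interval -1.64 to -1.21, adjusted p = 1.50e-08 in edgeR's quasi-likelihood test). In absolute size 17.5% of tested genes changed more.

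CDH2 encodes N-cadherin. It lies on the minus strand of chromosome 18 (27950966 to 28177446) and has the identifier ENSG00000170558.8. It had 509 and 474 counts in the WT libraries and 32 and 11 in the HSF1-pLVX libraries, that is 27.12 and 25.51 CPM against 1.275 and 0.5537. The HSF1-pLVX libraries thus held few reads of CDH2, while in WT cells 38.6% of tested genes had a higher mean CPM. Its log2 fold change was -4.78 (SE 0.208, 95% interval -5.23 to -4.33, adjusted p = 1.45e-10), larger in absolute size than in all but 0.935% of tested genes. The HSF1-pLVX libraries differed from each other by 1.20 on the log2 scale, more than for any other of the 8 genes. Without HSF1-pLVX replicate 1 the log2 fold change was -5.55, and without replicate 2 it was -4.35. On the deposited log2-like values the difference was -4.10. E-cadherin and N-cadherin transcripts thus fell together. Per length, CDH1 stood at most 27.1 times above CDH2 in the WT libraries, and 209 and 437 times above it in the HSF1-pLVX libraries.

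CDH3 encodes P-cadherin. It is the next cadherin gene beside CDH1 (ENSG00000062038.13, chromosome 16, 68636189 to 68722616, plus strand). It stood at 454.0 and 446.4 CPM in the WT libraries and at 780.5 and 825.2 in the HSF1-pLVX libraries. Both HSF1-pLVX libraries were well above both WT libraries. The means were 450.2 ± 5.369 and 802.9 ± 31.61 CPM, and the log2 fold change was 0.83 (SE 0.0959, 95% interval 0.63 to 1.04, adjusted p = 2.81e-06).

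CDH4 encodes R-cadherin, a classical cadherin known from the retina (ENSG00000179242.15, chromosome 20, 61252426 to 61940617, plus strand). It was the cadherin with the lowest level per length in WT cells, with 294 and 223 counts in the WT libraries and 163 and 117 in the HSF1-pLVX libraries. The levels were 15.66 and 12.0 CPM against 6.493 and 5.889, so the HSF1-pLVX libraries were lower although the WT libraries were further apart than for the other cadherins. The log2 fold change was -1.16 (SE 0.157, 95% interval -1.49 to -0.82, adjusted p = 1.48e-05). The count table also has a second CDH4 entry on a contig outside the main chromosomes (ENSG00000280641.2), with 14 and 8 counts in the WT libraries and 6 and 10 in the HSF1-pLVX libraries. Reads that match both copies may have been split or left out, so the level of CDH4 is uncertain.

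CDH13 encodes T-cadherin, which lacks the tail that binds catenins and is held in the membrane by a lipid anchor. The gene (ENSG00000140945.16, plus strand) spans chromosome 16 from 82626803 to 83800640. It had 572 and 518 counts in the WT libraries and 3813 and 3452 in the HSF1-pLVX libraries. In CPM these were 30.47 and 27.88 against 151.9 and 173.8, with both HSF1-pLVX libraries far above both WT libraries. The log2 fold change of 2.48 (SE 0.100, 95% interval 2.26 to 2.69, adjusted p = 7.64e-11) was the largest rise among the 8 genes, and 6.0% of tested genes changed more in absolute size.

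**Figure D1:**
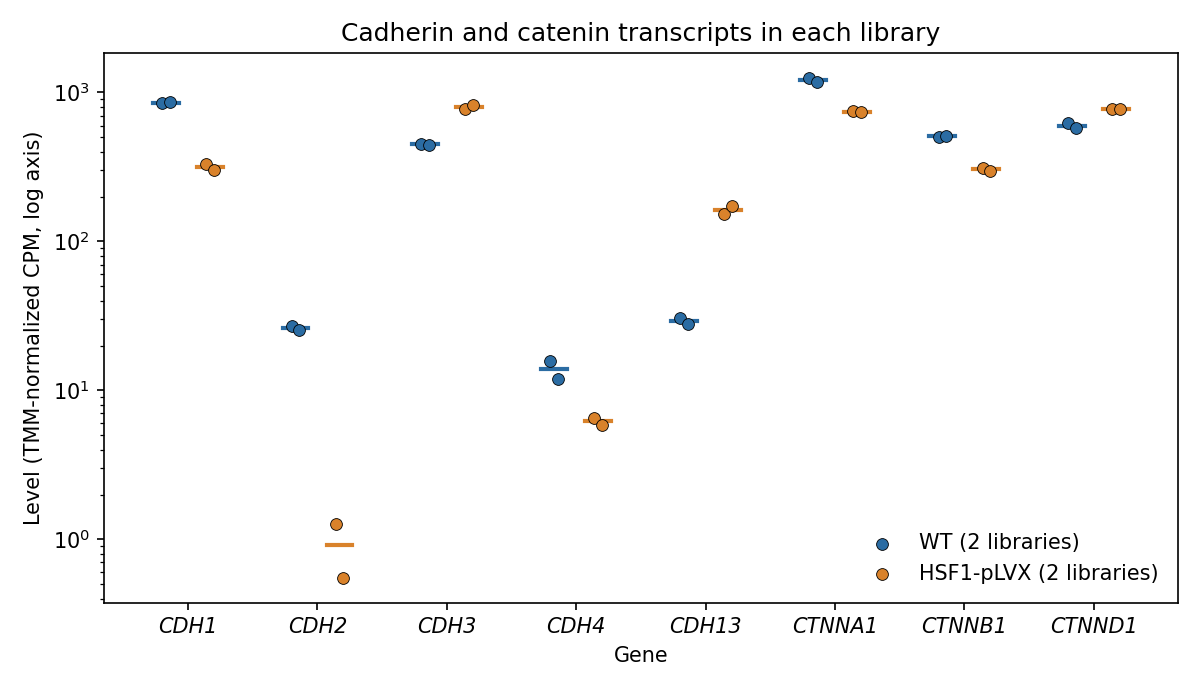
Level of each cadherin and catenin transcript in TMM-normalized CPM on a log axis, with 1 point per library and a bar at the mean of the 2 libraries of a variant. The WT points lie above the HSF1-pLVX points for CDH1, CDH2, CDH4, CTNNA1 and CTNNB1 and below them for CDH3, CDH13 and CTNND1. Positions of different genes on the axis are not corrected for length.

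The estimated changes of these catenins were smaller in absolute size than those of the cadherins. The intervals of CTNNB1 and CTNNA1 overlapped in absolute size with those of CDH3 and CDH4. CTNNB1, which binds the cadherin tail and also acts in Wnt signalling in the nucleus, lies on chromosome 3 from 41194837 to 41260096 (ENSG00000168036.16, plus strand). It stood at 500.0 and 513.5 CPM in the WT libraries and at 313.3 and 295.1 in the HSF1-pLVX libraries. CTNNA1, the actin-linking alpha-catenin, lies on chromosome 5 from 138610967 to 138935034 (ENSG00000044115.20, plus strand) and stood at 1251 and 1181 CPM against 748.0 and 734.8. Both transcripts were lower in both HSF1-pLVX libraries, by similar factors of 1.67 and 1.64. The log2 fold change was -0.74 for CTNNB1 (SE 0.0926, 95% interval -0.93 to -0.54, adjusted p = 7.06e-06) and -0.71 for CTNNA1 (SE 0.0996, 95% interval -0.93 to -0.50, adjusted p = 1.99e-05).

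CTNND1, which encodes p120-catenin and keeps cadherins at the cell surface by slowing their uptake, changed the other way (ENSG00000198561.13, chromosome 11, 57753243 to 57819546, plus strand). It stood at 624.5 and 575.4 CPM in the WT libraries and at 772.4 and 779.1 in the HSF1-pLVX libraries. The HSF1-pLVX libraries were almost equal to each other and above both WT libraries. The log2 fold change of 0.37 (SE 0.0974, 95% interval 0.16 to 0.58, adjusted p = 3.91e-03) was the smallest of the 8, and 65.7% of tested genes changed more in absolute size. Without HSF1-pLVX replicate 2 its adjusted p was 6.75e-02, the 1 call among these genes that was lost when a library was left out.

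**Figure D2:**
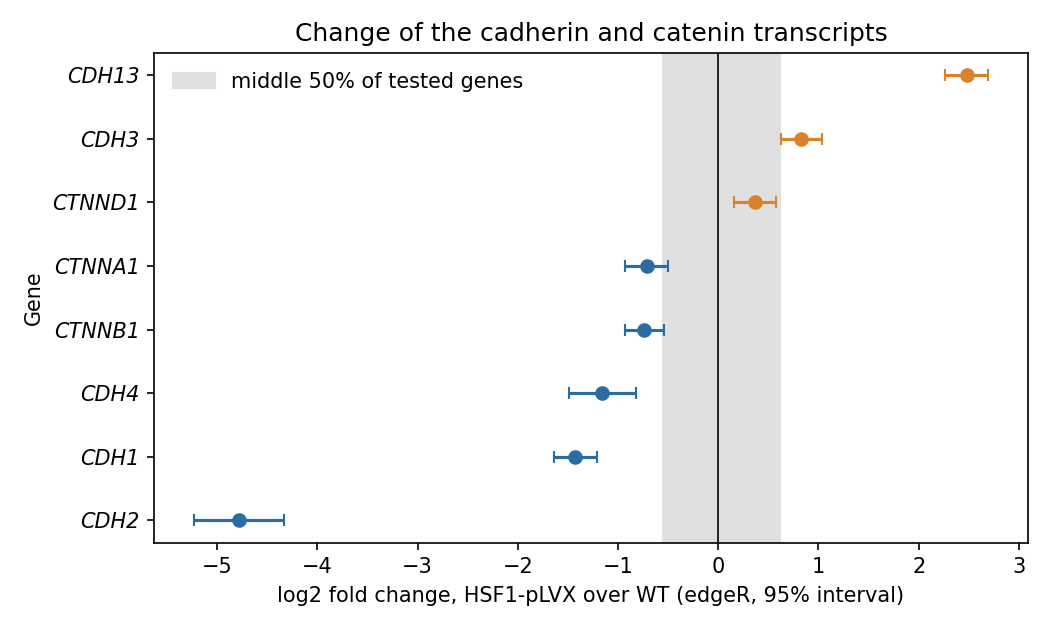
Log2 fold change of each gene, HSF1-pLVX over WT, from edgeR with its 95% interval, over a grey band that spans the interquartile range of all tested genes. CDH2 at -4.78 and CDH13 at 2.48 lie farthest from 0, and CTNND1 at 0.37 lies inside the band.

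To compare levels between genes, they were divided by length, as RPKM on the merged exons of each gene in the count table. In WT cells CDH1 (138 ± 1.93 RPKM) and CTNNA1 (138 ± 5.58) were highest and did not differ beyond their spread. CTNNB1 (76.6 ± 1.44), CDH3 (72.2 ± 0.861) and CTNND1 (68.2 ± 3.94) followed, of which CDH3 and CTNND1 did not differ beyond their spread. CDH2 (5.32 ± 0.229), CDH13 (2.61 ± 0.164) and CDH4 (1.88 ± 0.352) were an order of magnitude lower. In HSF1-pLVX cells the order was CDH3 (129 ± 5.07 RPKM), CTNND1 (88.2 ± 0.533), CTNNA1 (84.0 ± 1.05), CDH1 (51.4 ± 3.53), CTNNB1 (46.0 ± 1.95), CDH13 (14.6 ± 1.38), CDH4 (0.842 ± 0.0580) and CDH2 (0.185 ± 0.103). CDH1 thus went from a place above CDH3 and CTNNB1 to one far below CDH3 and, on this length, just above CTNNB1. The places of CTNNA1 and CTNNB1 depended on the length used. On the length of the canonical transcript CDH1 stood at 69.2 and 62.8 RPKM in the HSF1-pLVX libraries, below CTNNB1 at 85.6 and 80.6. On that length CTNNA1 stood at 333 and 315 RPKM in the WT libraries, above CDH1 at 176 and 179.

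The make-up of cadherin transcript changed more than its amount. The summed level of the 5 cadherins was 220 ± 0.328 RPKM in WT cells and 196 in HSF1-pLVX cells, where the libraries stood at 194 and 198. CDH1 made up 62.2 and 63.3% of this sum in the WT libraries and 27.8 and 24.8% in the HSF1-pLVX libraries. The share of CDH3 was 33.1 and 32.5% against 64.6 and 66.9%. E-cadherin transcript was therefore the largest part in each WT library, and P-cadherin transcript in each HSF1-pLVX library. CDH13 went from 1.18 ± 0.0762% to 7.43% (7.01 and 7.86% in the libraries), and CDH2 from 2.49 and 2.34% to 0.133 and 0.0566%. The ratio of CDH1 to CDH3 was 1.88 and 1.95 in the WT libraries and 0.431 and 0.370 in the HSF1-pLVX libraries. On the canonical transcript lengths it was 1.76 ± 0.0455 against 0.395 and 0.339, so the change of the leading cadherin held on both lengths. These shares were not tested beyond the tests of the single genes.

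**Figure D3:**
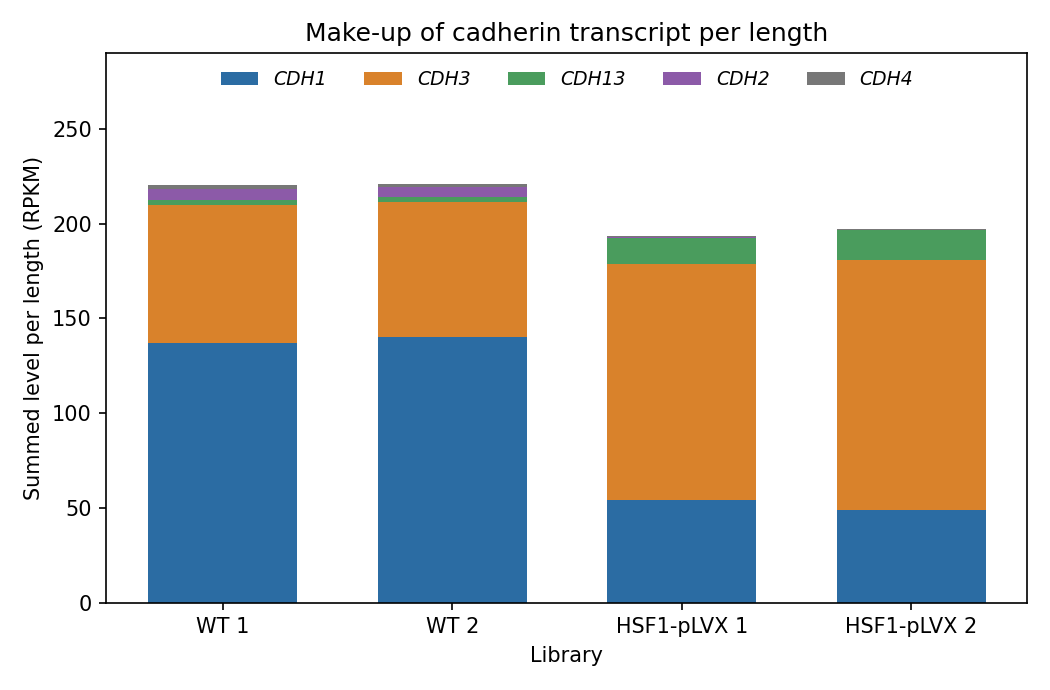
Stacked bars of the level per length (RPKM on the merged exons) of CDH1, CDH3, CDH13, CDH2 and CDH4 in each library. CDH1 fills 62.2 and 63.3% of the bar in the WT libraries and CDH3 fills 64.6 and 66.9% in the HSF1-pLVX libraries, while the height goes only from 220 to between 194 and 198.

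The 4 classical cadherins were also set against the catenins that bind them, per length. Their summed level over that of CTNNB1 was 2.87 and 2.81 in the WT libraries and 3.80 and 4.08 in the HSF1-pLVX libraries. Over CTNND1 it was 3.06 and 3.33 against 2.05 and 2.06. The ratio to beta-catenin thus went up and the ratio to p120-catenin went down. The ratio of CTNND1 to CTNNB1 was 0.939 and 0.842 in the WT libraries and 1.85 and 1.98 in the HSF1-pLVX libraries, without overlap. That of CTNNA1 to CTNNB1 was 1.87 and 1.72 against 1.79 and 1.86, and here the libraries of the variants overlapped. The counts are of transcripts, and the proteins in the complexes were not measured by these libraries.

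CDH3 and CDH1 lie head to tail on the same strand, 14608 bases apart, and changed in opposite directions. Within 500 kb of them 24 genes were tested, of which 7 were lower, 8 higher and 9 not called. Beside CDH1 and CDH3 these were 6 lower and 7 higher genes of 22, near the 33.2 and 32.7% of all tested genes. The called ones include FTLP14, ENSG00000260798 and HSPE1P5, which lie inside CDH1 or CDH3 and may share their reads. Among them HAS3, a hyaluronan synthase named after its value was seen, had a log2 fold change of 3.52 (SE 0.147).

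**Figure D4:**
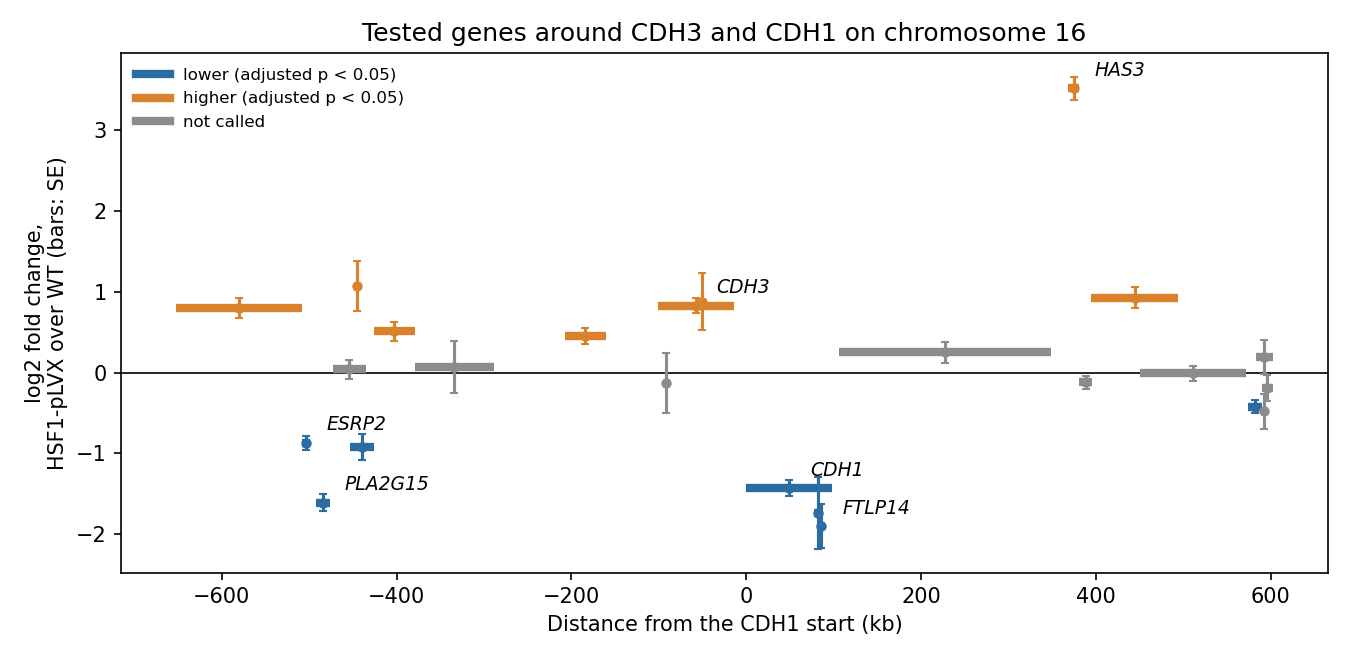
Log2 fold change with its SE (y axis) of the tested genes around CDH3 and CDH1, drawn as bars over their extent in kb from the CDH1 start (x axis). CDH1 at -1.43 lies beside CDH3 at 0.83, and the 24 genes include 7 lower, 8 higher and 9 not called.

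The spans of the 8 genes hold 30 other annotated genes, of which 8 share exonic bases with them and 9 have at least 10 counts in all. The strand and overlap settings of the counting are not given in the sources used here, so reads from such pairs may not be told apart. The lncRNA ENSG00000260798, which shares 347 exonic bases with CDH1 on the opposite strand, had 18 and 16 counts in WT and 5 and 7 in HSF1-pLVX libraries. FTLP14, a pseudogene inside CDH1, had 73 and 64 counts against 23 and 21. CDH3-AS1, which shares 694 bases with CDH3 on the opposite strand, had 13 and 17 counts against 17 and 16 and was not called, while HSPE1P5, a pseudogene inside CDH3, had 12 and 11 against 28 and 23. The protein-coding entry ENSG00000254732, which shares 289 bases with CTNND1 on the same strand, had 8 and 7 counts against 34 and 24. ULK4, which overlaps CTNNB1 on the opposite strand without sharing exonic bases, had 79 and 86 counts against 96 and 81. LRRTM2 inside CTNNA1, CDH13-AS2 and 1 further entry inside CDH3 (ENSG00000260860) had at most 13 counts per library. These counts were small beside those of their hosts, which held between 5863 and 23475 in each library for CDH1, CDH3, CTNNA1, CTNNB1 and CTNND1. The 4 overlapping transcripts that were called changed in the direction of the host. Of these, ENSG00000260798 passed the filter on low counts only through the WT libraries, and ENSG00000254732 only through the HSF1-pLVX libraries. The log2 fold change was -1.74 for ENSG00000260798, -1.90 for FTLP14, 0.88 for HSPE1P5 and 1.66 for ENSG00000254732.

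Other genes of the families were mostly silent or low. Of 18 further genes with CDH symbols only 3 passed the filter on low counts and 6 had 0 counts in every library. CDH24 rose (log2 fold change 0.61, SE 0.153, adjusted p = 2.93e-03), whereas CDH11 and CDH23, with 15 to 29 counts per library, had log2 fold changes of -0.18 each and were not called. CDH5, the cadherin of endothelium, had between 1 and 8 counts. Of 7 other catenin family genes 4 were tested. JUP, plakoglobin, which can take the place of beta-catenin on cadherin tails and also sits in desmosomes, stood at 1420 and 1390 CPM in WT and 375 and 385 in HSF1-pLVX libraries, a log2 fold change of -1.89 (SE 0.101, adjusted p = 1.01e-09). ARVCF, a relative of p120-catenin, fell (-1.08) and CTNNAL1, a relative of alpha-catenin, rose (0.88), while PKP4 had 0.01 and was not called. Genes of brain and heart forms of the catenins (CTNNA2, CTNNA3 and CTNND2) had at most 2 counts per library.

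Of 20 genes for linkers of the junction and nectins, a second set of adhesion proteins of adherens junctions, 18 were tested. They comprised 12 lower, 2 higher (NECTIN1 and AJUBA) and 4 not called, with a median log2 fold change of -0.57, against 33.2 and 32.7% of all tested genes and a median of 0.02. The largest changes were in LMO7, which connects nectins and cadherins through afadin and alpha-actinin (-3.33, SE 0.142), in NECTIN4 (-2.64, SE 0.136) and in NECTIN1 (2.58, SE 0.103). NECTIN1 thus rose while its relatives NECTIN2 (-1.37) and NECTIN4 fell. VCL, vinculin, which binds alpha-catenin under tension, fell as well (-0.64), as did AFDN, afadin (-0.80). ACTN4 and DLG5 were not tested, with 0 to 6 counts per library. These symbols, like SCRIB and PTPRK, have a second entry in the authors' tables. The low counts of ACTN4 and DLG5 therefore do not show that these genes were silent, and the values of SCRIB and PTPRK are uncertain.

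Of 20 genes for cleavage, uptake and maturation of cadherins 19 were tested, with 9 lower, 3 higher (MMP7, MMP9 and PTPRM) and 7 not called, against 33.2 and 32.7% of all tested genes. Their median log2 fold change was -0.40, against 0.02 over all tested genes. MMP7 and MMP9, proteases able to cut E-cadherin outside the cell, rose by 2.95 (SE 0.166) and 2.30 (SE 0.192) on the log2 scale. FURIN, which removes the propeptide of cadherins, fell (-1.58, SE 0.0930), and ADAM10, a sheddase of E-cadherin and N-cadherin, fell by 0.41 on that scale. Of 18 genes for turnover and nuclear partners of beta-catenin 16 were tested, with 5 lower, 6 higher and 5 not called, close to the 33.2 and 32.7% of all tested genes. AMER1, which assists the destruction complex, rose (1.59, SE 0.184). GSK3B and APC of that complex fell (-0.99, SE 0.0863 and -0.97, SE 0.106). TCF7 rose (0.96). AXIN2, a target of beta-catenin signalling, had 5 and 6 counts in WT and 17 and 16 in HSF1-pLVX libraries (log2 fold change 1.30, SE 0.448). It passed the filter on low counts only through the HSF1-pLVX libraries, so it could enter the count of 6 only as a higher gene.

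Transcription factors reported elsewhere to lower CDH1 numbered 13, of which 11 were tested, with 1 lower (TCF4), 5 higher (SNAI2, ZEB2, TWIST1, TWIST2 and E2F8) and 5 not called, against 33.2 and 32.7% of all tested genes. Their median log2 fold change was 0.57, against 0.02 over all tested genes. SNAI2 stood at 34.7 and 33.3 CPM in the WT libraries and at 66.5 ± 2.15 CPM in HSF1-pLVX cells (log2 fold change 0.97, SE 0.0857). ZEB2, a low transcript in both variants, had 7 and 3 counts in WT and 51 and 52 in HSF1-pLVX libraries (3.08, SE 0.411). It passed the filter on low counts only through the HSF1-pLVX libraries, so it could enter the count of 5 only as a higher gene. SNAI1 (0.45) and ZEB1 (0.57), with 14 to 37 counts per library, were not called. TWIST1 and TWIST2 rose by nearly the same amount (1.48 and 1.46), with 102 and 104 counts in WT replicate 1 and 352 and 351 in HSF1-pLVX replicate 2. Their counts were so alike in each library that reads shared between these related genes may have been given to both, so that their separate values are uncertain and the 5 higher calls may hold 1 change more than once.

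Of 16 factors reported elsewhere to raise CDH1 or the epithelial programme 13 were tested, with 8 lower, 1 higher and 4 not called, against 33.2 and 32.7% of all tested genes. Their median log2 fold change was -0.81, against 0.02 over all tested genes. OVOL1 (-3.08, SE 0.142) and GATA3 (-2.28, SE 0.0909) fell most and FOXA2 rose (2.26, SE 0.268). All 3 grainyhead-like genes fell (GRHL1 -1.71, GRHL2 -0.88, GRHL3 -1.30).

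**Figure D5:**
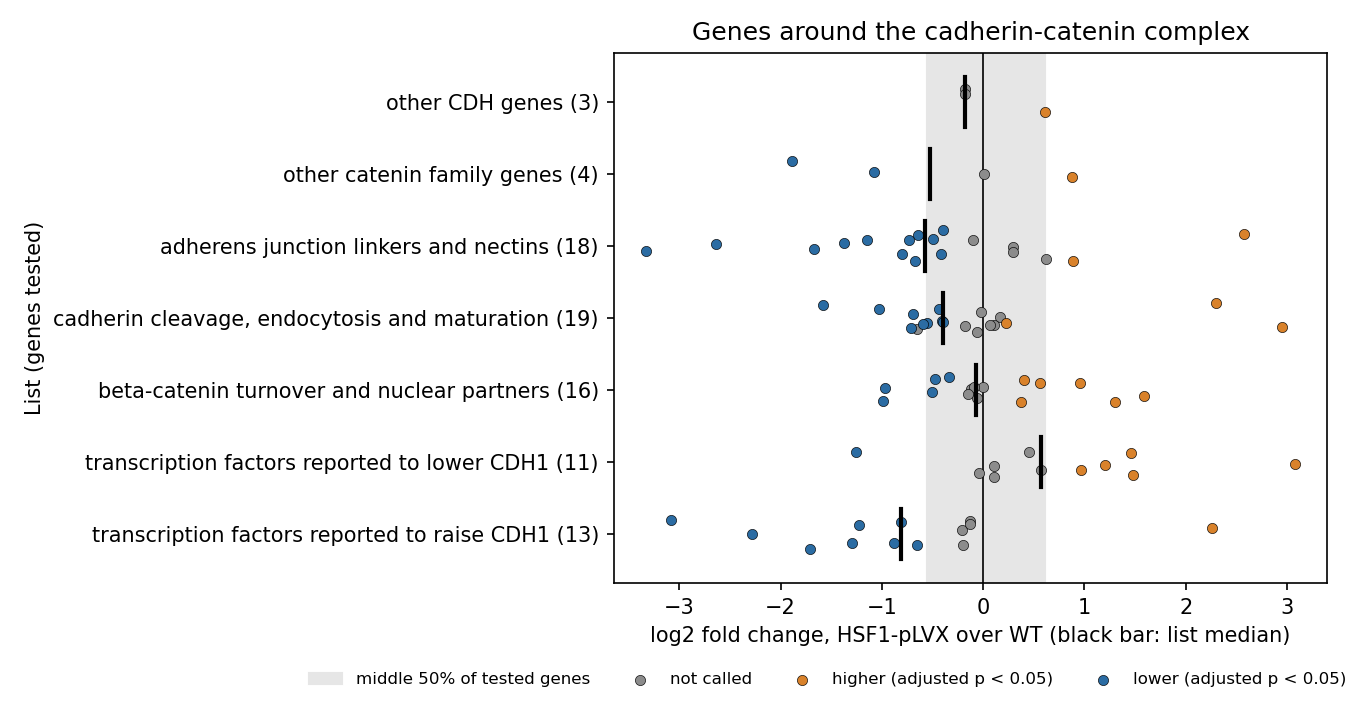
Log2 fold change, HSF1-pLVX over WT, of each tested gene of 7 lists around the cadherin-catenin complex (1 point per gene, black bar at the list median, grey band for the interquartile range of all tested genes). The medians run from -0.81 for factors reported to raise CDH1 to 0.57 for factors reported to lower it, and every list holds genes that rose.

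The summed level of luminal markers was lower in HSF1-pLVX cells, as CDH1 was, and that of basal markers was also lower, while CDH3 was higher. Of 9 luminal markers 6 were tested, with 5 lower and 1 higher (against 33.2 and 32.7% of all tested genes), and their summed level was 5060 and 5150 CPM in the WT libraries and 1030 and 836 in the HSF1-pLVX libraries. KRT8 changed by -3.24, KRT18 by -1.73 and EPCAM by -1.36 on the log2 scale, ESR1 by 1.65, and PGR had 0 counts. Of 10 basal markers 5 were lower, 4 higher and 1 not called, close to the 33.2 and 32.7% of all tested genes, with a summed level of 26100 and 24600 against 14300 and 14900 CPM. KRT14 (-3.55) and KRT17 (-2.56) fell, and TP63 (3.48) and KRT5 (1.12) rose. Basal markers thus moved both ways, and keratin genes have near copies that may share reads, so that single values are uncertain. Fewer cells of a type and less RNA per cell cannot be told apart in these libraries, and the part of a change in cell types in the cadherin values was not tested. The fibroblast list had a summed level of 461 and 470 CPM in WT and 268 and 255 in HSF1-pLVX libraries. Of its 10 genes 4 were tested, with 2 lower (FAP and FBLN1) and 1 higher (DCN). DCN, with 1 and 3 counts in the WT libraries, passed the filter on low counts only through the HSF1-pLVX libraries. The endothelial list had at most 15.2 CPM, with KDR alone called, and the white blood cell list at most 25.9 CPM, with CSF1R alone called.

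Genes with the pattern most like a cadherin were sought among genes with at least 50 counts in every library of their higher group, by the distance between centred log2(CPM + 0.5) values over the 4 libraries. For CDH1 they were CYTH3, CYLD and ATP6V0A1, at distances of 0.0359 to 0.0418, and 206 genes lay within 0.2. For CDH13 they were ORC1, KCP and ASNS, at 0.0465 to 0.0777, with 27 genes within 0.2. For CDH2 the nearest were GPRC5A, PLCB4 and PDGFB, at 0.282 to 0.303, and 0 genes lay within 0.2. Many genes were thus as near to CDH1 as that, and none to CDH2. CDH2 had only 32 and 11 counts in the HSF1-pLVX libraries, and 0.935% of tested genes changed more in absolute size. Its distances are therefore uncertain, and the lack of near genes is not a finding about its pattern. The distances are over 4 libraries in 2 variants.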

How the data were processed

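RNA-seq counts of 4 MCF10A libraries were analysed, 2 per variant, grouped by their labels. The authors aligned paired-end reads of 76 bp from ribosome-depleted total RNA to hg38 with HISAT2 2.0.5, processed them with SAMtools 1.13 and deposited counts per gene from featureCounts 1.6.5 on GENCODE release 26. The authors also deposited log2-like values normalized with DESeq2 1.32.0, used here only as an alternative. In R 4.3.3, the counts were tested with edgeR 4.0.16 (TMM normalization, filterByExpr, quasi-likelihood test, no block), with Benjamini-Hochberg adjustment over 15830 genes. The threshold was 0.05. The test was tested on simulated data. Intervals are at 95%. RPKM is the CPM divided by merged exon length in kb, and canonical transcripts are from GENCODE release 44. Named are all 8 genes, HSF1, overlapping genes, the nearest patterns and, of each list, the 3 largest called changes. Those had at least 50 counts in each library of the higher group and the same direction in both same-numbered pairs of libraries. Further list genes were named by role, chosen after their values were seen. The genes and lists were chosen with earlier results of these data known. Alternatives were other normalizations, no filter, DESeq2 1.42.0, limma 3.58.1 on the deposited values, the replicate block and each library left out. One of the lists is not reported here.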

Additional observations from a re-analysis of the deposited data

How the results depend on the processing

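Direction and call were kept in 48 of 48 values of the 8 genes under 6 other settings (DESeq2 size factors, library size only, no filter, DESeq2's Wald test, the replicate block and the deposited log2-like values) and in 31 of 32 values with a library left out. The exception was CTNND1, whose log2 fold change ran from 0.30 to 0.45 with a library left out and whose adjusted p was 6.75e-02 without HSF1-pLVX replicate 2. A group with 1 library left is assumed to vary like the other. CDH2 ran from -5.55 to -4.35 with a library left out and from -4.81 to -4.10 under the other settings, the latter on the deposited log2-like values. On canonical transcript lengths, the rise in the ratio of summed classical cadherins to CTNNB1 was 0.906 in place of 1.10, by the construction of the lengths.

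With the replicate number as a block, 5171 genes were lower and 5138 higher. CTNND1 had an adjusted p of 1.74e-02 in edgeR's quasi-likelihood test, and the block changed no call among the 8 genes. In that fit the quasi-likelihood spread was shared fully among genes, so the kept calls say little about the spread of each gene. Without the filter the adjusted p of CDH2 in edgeR's quasi-likelihood test was 1.84e-144, against 1.45e-10 in the main fit. It was also far smaller than in the main fit with either WT library left out. Values this small need a spread shared about as fully, so the calls kept in those fits have the same limit. Deviations of same-numbered libraries correlated at -0.0147 over all tested genes and -0.114 over the 9672 above 8 CPM, so the numbers were not treated as pairs. The few counts of CDH2 in HSF1-pLVX libraries and of ZEB2 in WT libraries limit their folds.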
